A study of Mus musculus with 12 samples.

Results

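Collagen chains are the subunits of the trimeric proteins that form most of the fibrous and sheet-like extracellular matrix. Members were the probe sets with a single platform gene symbol made of Col, a number, the letter a and a number, with the brightest probe set over the 12 arrays standing for each gene. The rule gave 44 of the 22180 genes measured: 11 fibrillar chains, 6 chains of type IV collagen, which builds basement membranes, and 27 chains of other types. The samples were pancreatic cells of the mouse, hybridised to 12 Affymetrix arrays, with 3 for each of the 4 groups. The tumor group was low-passage tumor cells grown in standard medium. The ADM group was acinar-to-ductal metaplasia, in which acinar cells take on features of duct cells, cultured inside collagen over 7 days with TGF-alpha, a growth factor that acts on the EGF receptor, at 50 ng/ml. The embryonic and the adult group were acinar cells, which make the digestive enzymes of the pancreas, taken for RNA straight after enzymatic isolation. The strain is given as C57Bl6/J wildtype for all 4 groups, the tumor cells included. Ages, embryonic stage and the origin or driver of the tumor cells are not stated. Whether replicates came from separate animals, cultures or tumor lines is not stated, so the p-values cover the spread among arrays and possibly no more.

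Collagen chains wind around each other into a triple helix, and the chain composition sets the type. Type I, III and V molecules pack into the fibrils of connective tissue, which in the pancreas are made mainly by fibroblasts and stellate cells. Type IV molecules join end to end into the network under epithelia and around vessels. Newly made chains are hydroxylated, folded with the chaperone Hsp47, trimmed outside the cell and crosslinked by lysyl oxidases, and cells sense the finished matrix through integrins and discoidin domain receptors.

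All values are log2 signal per probe set as deposited. A group mean at or under 3.62 was taken as background, which is the 95th percentile of the group means that 1394 receptor genes of smell and pheromones reached. Calls required an adjusted p under 0.05 and a log2 fold change of 1 or more in either direction, and "rose" and "fell" are used of called genes alone. Where the dimmer group lay at background, a lower bound on the fold is given, written "at least". Values after ± are standard errors of the fold change with n = 3 arrays per group. They come from 1 model of all 4 groups that also borrows spread from other genes. A gene thus has the same error in each comparison, whatever the spread of the 2 groups compared. Signals of different probe sets are not on a common scale, so a chain is compared between groups and never with another chain.

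Arrays of a group correlated at 0.967 to 0.991 over all genes, and arrays of different groups at 0.817 to 0.938. The measured markers of acinar cells summed to a linear signal of 114 to 149 on tumor, 14656 to 19583 on ADM, 32738 to 37339 on embryonic and 43824 to 45420 on adult arrays. The 8 measured duct and epithelial markers summed to 11251 to 12266 on tumor, 11840 to 13536 on ADM, 4604 to 5782 on embryonic and 4081 to 4337 on adult arrays. The sum hides single genes. In tumor against ADM 0 of the 8 were called higher and 2 lower, beside 3.28% and 5.07% of all genes. Epcam averaged 3.82 in tumor, 9.09 in ADM, 8.62 in embryonic and 6.82 in adult cells. Cftr averaged 3.49 in tumor cells, at background, and 6.58 in ADM. The 14 markers of fibroblasts and stellate cells were above background for 4 genes in tumor cells and for all 14 in each other group. They summed to 184 to 236 on tumor, 2445 to 5925 on ADM, 5092 to 9567 on embryonic and 1247 to 1330 on adult arrays. In tumor cells the markers at background included Pdgfra, Dcn, Lum and Postn, at 3.26, 3.17, 2.74 and 3.51. The 4 above it were Acta2, Pdgfrb, Fbln1 and Mfap5, at 5.75, 4.46, 3.88 and 3.85. In adult cells these 4 were at 5.82, 5.05, 4.20 and 5.84. The 10 endothelial markers summed to 123 to 130 on tumor, 452 to 589 on ADM, 2277 to 2446 on embryonic and 560 to 654 on adult arrays. The part of these cells in the collagen differences was not tested, and in bulk RNA fewer cells of a type and less RNA per cell cannot be told apart. Replicate 2 of the ADM group had the lowest mean fibroblast marker signal of its group (6.42 against 7.47 and 7.52), and replicate 2 of the embryonic group likewise (7.89 against 8.74 and 8.51).

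The main interstitial chains were highest in embryonic acinar cells or ADM cultures, and Col1a1, Col1a2, Col3a1, Col6a1, Col6a2 and Col6a3 were lowest in tumor cells. Of the 44 chains, 34 were above background in at least 1 group, and 18 were above it in all 4. The number above background was 21 in tumor cells, 27 in ADM, 31 in embryonic and 30 in adult cells. The 10 chains at background in every group were Col4a3, Col4a4, Col4a6, Col6a4, Col6a5, Col8a2, Col9a1, Col17a1, Col19a1 and Col28a1. A total of 19 chains were called in at least 1 of the 6 pairwise comparisons. The other 25 were called in none, and with group means under background raised to it their largest absolute log2 difference was 0.84. Of these 25, 8 had an adjusted p under 0.05 in at least 1 comparison but missed the fold threshold. The summed linear signal of all collagen probe sets was 693 to 719 on tumor, 2222 to 4433 on ADM, 5196 to 7484 on embryonic and 849 to 940 on adult arrays. Such a sum weighs bright probe sets most and includes sets at background, so it does not measure the amount of collagen RNA.

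**Figure D1:**
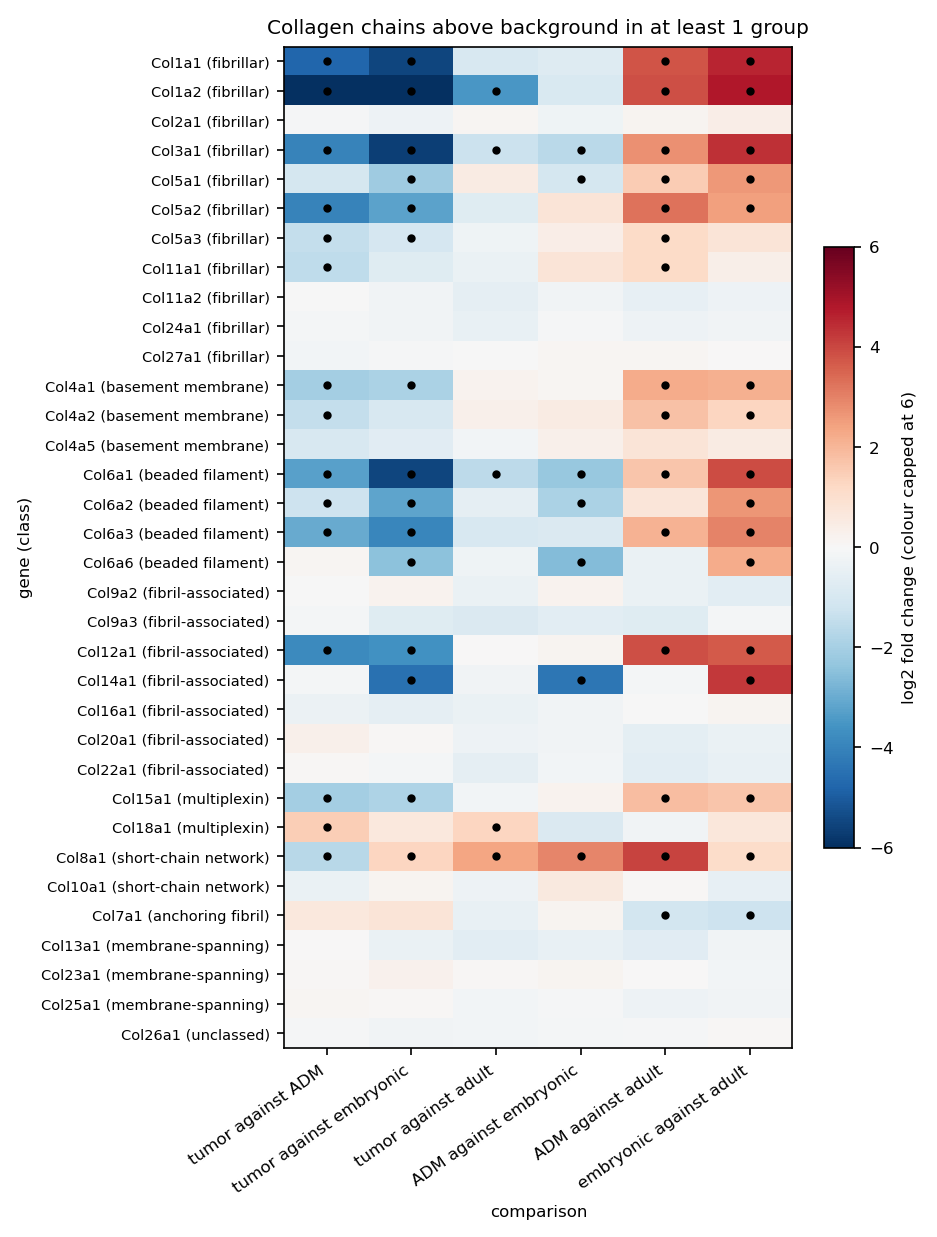
Log2 fold changes of the 34 collagen chains above background in at least 1 group (vertical) in the 6 comparisons (horizontal). Colour gives the log2 fold change, drawn no further than 6 in either direction, and a dot marks a called chain. ADM and embryonic cells have 14 and 15 chains higher than adult cells, and tumor cells have 14 chains lower than ADM and 14 lower than embryonic cells.

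In ADM against adult acinar cells, 14 chains rose and 1 fell, beside 12.5% and 4.22% of all genes. Arrays did not overlap for 25 chains, 17 with ADM above and 8 with ADM below, while this held for 49.8% of all genes. The median log2 change was 0.01 over the 44 chains and -0.11 over all genes, so the calls sat in a minority of the chains. Among the fibrillar chains 7 of 11 rose and the class median was 1.15. Among the type IV chains 2 of 6 rose, with a median of 0.41. Among the other chains 5 of 27 rose and 1 fell, with a median of -0.10. Centring the arrays on 11 housekeeping genes moved the split of calls to 9 higher and 15 lower, beside 1022 and 9409 of all 22180 genes. That centring also moved the median of all genes to -0.92. No chain called in the deposited values changed direction under it. In this comparison the fibroblast list had 8 of 14 members higher and 0 lower, and the endothelial list had 0 of 10 higher and 1 lower. The fibroblast split was 7 higher and 1 lower after quantile normalization, 7 and 2 after cyclic loess, and 6 and 3 after centring on housekeeping genes.

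In embryonic against adult acinar cells, 15 chains rose and 1 fell, beside 10% and 2.61% of all genes. Arrays did not overlap for 26 chains, 19 of them higher in embryonic cells, beside 42.9% of all genes. The median was 0.18 over the chains and -0.09 over all genes. Here 5 of 11 fibrillar, 2 of 6 type IV and 8 of 27 other chains rose, and the chain that fell, Col7a1, was of the last class. All 14 fibroblast markers, 9 of 10 endothelial, 5 of 5 mesothelial and 5 of 7 immune markers were also called higher in the embryonic cells.

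Tumor against adult cells gave few calls, with 2 chains higher and 3 lower, or 5 of 44, beside 20% of all genes. Arrays did not overlap for 19 chains, 17 of them lower in tumor cells, beside 43.7% of all genes. The median was -0.26 over the chains and -0.09 over all genes. Of the fibroblast markers 7 of 14, and of the endothelial markers 6 of 10, were lower in tumor than in adult cells, and for the fibroblast list this was 7 after quantile normalization, 10 after cyclic loess and 13 after centring on housekeeping genes. The split of collagen calls was 1 higher and 5 lower after quantile normalization, 1 and 7 after cyclic loess, and 1 and 30 after centring on housekeeping genes. Over all 22180 genes it was 2154 and 1866, 1960 and 1960, and 1211 and 9669, in the same order. Centring on housekeeping genes moved the median of all genes to -0.93. The share of collagen calls among the 44 was thus below that of all genes in the deposited values and above it after the last of these scalings. In tumor against ADM, 1 chain rose and 14 fell, beside 3.28% and 5.07% of all genes, or 8.35% either way. The medians were -0.14 over the chains and 0.06 over all genes, and arrays did not overlap for 21 chains, 18 of them lower in tumor cells, beside 31.6% of all genes. In tumor against embryonic cells the counts were again 1 higher and 14 lower, beside 6.53% and 7.8% of all genes, with medians of -0.27 and 0.07. Arrays did not overlap for 24 chains, 22 of them lower in tumor cells, beside 38.6% of all genes. These comparisons share their tumor arrays. Of the 14 fibroblast markers, 12 were lower in tumor cells than in ADM and 14 were lower than in embryonic cells. In ADM against embryonic cells 1 chain rose and 6 fell, beside 4.55% and 4.91% of all genes, or 9.46% either way. Arrays did not overlap for 17 chains, 12 of them lower in ADM, beside 37.6% of all genes. The medians there were -0.10 over the chains and 0.00 over all genes. In this comparison 2 of 14 fibroblast markers were higher and 8 lower in ADM, and 10 of 10 endothelial, 4 of 5 mesothelial and 4 of 7 immune markers were lower. The other mesothelial marker, Msln, was higher in ADM, at 10.52 against 6.22 in embryonic cells. The part of these cells was not tested.

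Type I collagen, the main fibril of connective tissue, is built of the products of Col1a1 and Col1a2. Col1a1 gave 3.42, 3.78 and 3.77 on the tumor, 8.82, 7.57 and 8.79 on the ADM, 9.55, 8.97 and 9.03 on the embryonic and 4.71, 4.48 and 4.67 on the adult arrays. Every ADM and embryonic array lay above every adult array, and every tumor array lay below them. Col1a1 rose by 3.77 ± 0.29 in ADM (adjusted p = 4.71e-07) and by 4.56 ± 0.29 in embryonic cells (adjusted p = 1.81e-07), both against adult cells. Tumor cells were lower than ADM, with a log2 fold change of -4.74 ± 0.29 (adjusted p = 1.11e-07). They were at -0.96 ± 0.29 against adult cells (adjusted p = 0.0174), which missed the fold threshold. ADM against embryonic cells was at -0.79 ± 0.29 (adjusted p = 0.0805) and was not called, although no ADM array reached the embryonic range.

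Col1a2 gave 3.13, 2.87 and 2.58 on the tumor, 10.61, 9.55 and 10.56 on the ADM, 11.42, 10.85 and 11.25 on the embryonic and 6.24, 6.61 and 6.24 on the adult arrays. The 4 groups did not overlap on this probe set, and all 3 tumor arrays were at background. It rose by 3.88 ± 0.27 in ADM (adjusted p = 2.03e-07) and by 4.81 ± 0.27 in embryonic cells (adjusted p = 6.78e-08) against adult cells. On this probe set the tumor signal was at least 98.3-fold lower than in ADM and at least 188-fold lower than in embryonic cells. It was at least 6.69-fold lower than in adult cells (adjusted p = 2.71e-07). A second, dimmer Col1a2 probe set averaged 4.07 in tumor, 7.70 in ADM, 8.74 in embryonic and 4.19 in adult cells. It gave log2 fold changes of 3.51 for ADM and 4.55 for embryonic cells against adult cells, close to those above. With tumor cells above background, it gave smaller changes of -3.63 against ADM (adjusted p = 1.14e-05) and -4.67 against embryonic cells (adjusted p = 5.16e-07). The bounds of 98.3-fold and 188-fold thus hold for the brighter probe set alone. For tumor against adult cells the dimmer set gave -0.12 (adjusted p = 0.802), so the lower Col1a2 of tumor cells against adult cells rests on the brighter probe set. The mean of both probe sets gave -1.81 ± 0.26 (adjusted p = 8.34e-05) there.

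The Col1a2 promoter is printed because this chain differed most between groups, a choice made after its values were seen. The window runs from 250 bases before to 50 after the start in RefSeq on GRCm38.p6, chr6:4505368-4505667, plus strand, and capitals mark the matches to 3 of the motifs searched.
Col1a2: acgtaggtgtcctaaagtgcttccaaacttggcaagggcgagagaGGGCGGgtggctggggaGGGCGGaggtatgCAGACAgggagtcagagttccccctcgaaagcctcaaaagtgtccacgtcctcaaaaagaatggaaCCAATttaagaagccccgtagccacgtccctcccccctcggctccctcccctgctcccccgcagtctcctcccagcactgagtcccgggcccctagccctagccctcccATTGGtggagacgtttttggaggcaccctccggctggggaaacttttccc
The motifs were searched on both strands: CCAAT (the CCAAT box), GGGCGG (the GC box, to which Sp factors can bind), CAGACA (a SMAD element), TATAAA (the TATA box), TGANTCA (an AP-1 site) and GGAATG (a TEAD element). The Col1a2 window held 2 CCAAT, 2 GGGCGG and 1 CAGACA match. Windows were available for 35 of the 44 members, 38 windows in all, and not for the other 9, Col1a1 and Col5a2 among them. GGGCGG occurred in 23 of the 38 collagen windows (60.5%) and in 35.7% of all 32851 windows. The collagen windows were also richer in G and C, with a median of 59.9% against 52.7%, and the part of this in the count was not tested. CCAAT occurred in 34.2% of the collagen windows against 37.4% of all, and CAGACA in 23.7% against 21%. TATAAA was found in 13.2% against 13.6%, GGAATG in 13.2% against 14.7%, and TGANTCA in 2.63% against 7.81%. A match describes the letters of the window and not a bound site.

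Col3a1, the chain of type III collagen in young and pliable connective tissue, gave 4.0, 4.22 and 4.16 on the tumor, 8.55, 7.23 and 8.68 on the ADM, 10.01, 9.59 and 9.73 on the embryonic and 5.66, 4.79 and 5.73 on the adult arrays. The 4 groups did not overlap. Each step in the order embryonic, ADM, adult, tumor was called, with ADM at -1.62 ± 0.34 against embryonic cells (adjusted p = 0.00387), ADM at 2.76 ± 0.34 against adult cells (adjusted p = 2.99e-05) and tumor cells at -1.27 ± 0.34 against adult cells (adjusted p = 0.00919). Embryonic cells were at 4.38 ± 0.34 against adult cells (adjusted p = 9.53e-07), and tumor cells at -5.65 ± 0.34 against embryonic cells (adjusted p = 3.41e-08).

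Type V chains nucleate fibrils and join type I molecules in them. Col5a2 gave 3.23, 3.50 and 3.58 on the tumor, 7.71, 6.61 and 8.01 on the ADM, 7.08, 6.35 and 6.52 on the embryonic and 4.18, 4.32 and 4.02 on the adult arrays. Unlike Col3a1, its neighbour on chromosome 1, it was no lower on average in ADM than in embryonic cells, and the 2 groups overlapped. It rose by 3.27 ± 0.30 in ADM (adjusted p = 2.47e-06) and by 2.48 ± 0.30 in embryonic cells (adjusted p = 4.64e-05) against adult cells. With tumor arrays at background, it was at least 14.2-fold lower in tumor cells than in ADM and at least 8.16-fold lower than in embryonic cells. Col5a1 gave 3.65, 4.42 and 4.34 on the tumor, 5.65, 4.52 and 5.37 on the ADM, 6.76, 5.86 and 6.13 on the embryonic and 4.18, 3.42 and 3.30 on the adult arrays. Tumor and adult arrays overlapped. It rose by 1.55 ± 0.34 in ADM (adjusted p = 0.00281) and by 2.62 ± 0.34 in embryonic cells (adjusted p = 7.34e-05), and fell by 1.07 ± 0.34 in ADM against embryonic cells (adjusted p = 0.0428). The change in ADM against adult cells was 0.74 (adjusted p = 0.0554) after centring on housekeeping genes. The second Col5a1 probe set stayed between 4.23 and 4.59 in all groups with adjusted p of 0.207 to 0.889, which disagrees with the brighter set. With the mean of both sets, the change in ADM was 0.65 (adjusted p = 0.0152) against adult and -0.64 (adjusted p = 0.0273) against embryonic cells, both under the fold threshold. The call of ADM against embryonic cells was also lost without ADM replicate 2 (-0.74, adjusted p = 0.197) or 3 (adjusted p = 0.0723) and without embryonic replicate 1 (adjusted p = 0.18) or 3 (adjusted p = 0.078).

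Changes of the minor fibrillar chains lay nearer the thresholds. Col5a3 gave 3.77, 3.96 and 3.53 on the tumor, 5.30, 4.87 and 5.32 on the ADM, 5.03, 4.60 and 4.70 on the embryonic and 4.20, 4.39 and 3.46 on the adult arrays. It rose by 1.15 ± 0.24 in ADM against adult cells (adjusted p = 0.00188), a call that was lost without adult replicate 3 (0.87, adjusted p = 0.00608) and under 3 other scalings. It fell by 1.41 ± 0.24 in tumor cells against ADM (adjusted p = 0.00101) and by 1.02 ± 0.24 against embryonic cells (adjusted p = 0.00515), and the second of these calls was lost without tumor replicate 3 (-0.91) or embryonic replicate 1 (-0.90), after quantile normalization (-0.72) and after cyclic loess (-0.99). Col11a1, which joins minor fibrils of cartilage and other tissues, gave 3.34, 3.37 and 3.39 on the tumor, 5.25, 4.51 and 4.96 on the ADM, 4.18, 4.07 and 4.08 on the embryonic and 3.47, 4.06 and 3.77 on the adult arrays. All ADM arrays lay above all others. It rose by 1.14 ± 0.19 in ADM (adjusted p = 0.000449), and this passed the fold threshold neither without ADM replicate 1 (0.97) nor without adult replicate 1 (0.99), nor after centring on housekeeping genes (0.33). It was at least 2.44-fold lower in tumor cells, at background, than in ADM (adjusted p = 0.0001), and that call held under all 14 alternatives. Of the 8 cartilage markers 0 were higher and 1 was lower in ADM than in adult cells, beside 12.5% and 4.22% of all genes. As 5 of the 8 were at background in both groups, this list could hardly show a difference. The remaining fibrillar chains, Col2a1, Col11a2, Col24a1 and Col27a1, were called in no comparison.

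**Figure D2:**
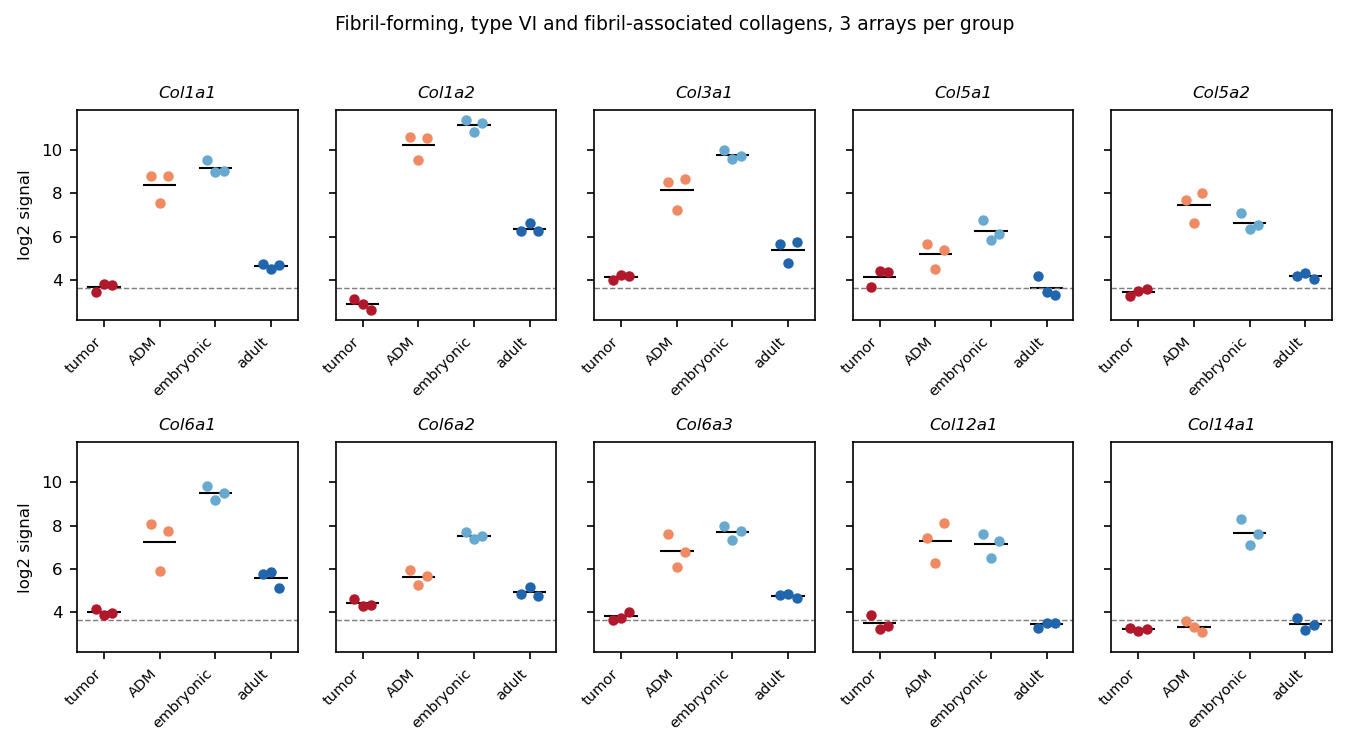
Log2 signal (vertical) of 10 interstitial collagen chains by group (horizontal), 1 point per array, with the group mean as a line and the background level of 3.62 dashed. For Col1a1, Col1a2, Col3a1 and Col6a3 every ADM and embryonic array lies above every adult array, while Col14a1 is above background in embryonic cells alone and ADM replicate 2 is the lowest ADM point for Col1a1, Col1a2, Col3a1, Col6a1 and Col12a1.

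ADM replicate 2 was the lowest ADM array for 19 of the 27 chains above background in ADM. These included 14 of the 14 chains that rose in ADM against adult cells. For those 14 its difference from the mean of the other ADM arrays ran between -0.44 and -2.01 on the log2 scale, with the last in Col6a1. Its summed fibrillar signal was 1324, against 2788 and 2787 for the others. Over all genes it correlated with them at 0.988 and 0.988, and they correlated with each other at 0.991. Without it the changes of ADM against adult cells were 4.19 for Col1a1, 4.22 for Col1a2 and 3.22 for Col3a1, and all 14 chains were still called higher. Embryonic replicate 2 was the lowest embryonic array for 19 of the 31 chains above background there, and for 13 of the 15 chains that rose in embryonic cells. The fibroblast markers were also lowest on these 2 arrays, and their part was not tested.

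**Figure D3:**
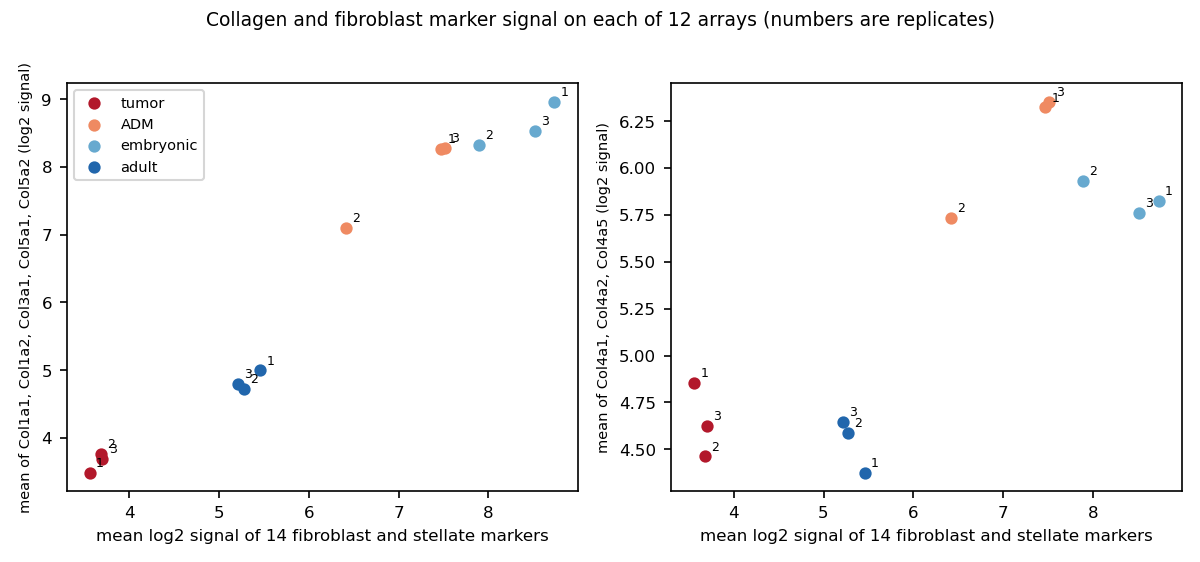
Mean log2 signal of selected fibrillar and type IV chains (vertical) against that of 14 fibroblast and stellate cell markers (horizontal), 1 point per array, coloured by group. The fibrillar chains drawn are Col1a1, Col1a2, Col3a1, Col5a1 and Col5a2, and the type IV chains are Col4a1, Col4a2 and Col4a5. The markers average 3.56 to 3.70 on tumor, 6.42 to 7.52 on ADM, 7.89 to 8.74 on embryonic and 5.21 to 5.46 on adult arrays. The drawn fibrillar means lie at 3.49 to 3.76 on tumor, 7.10 to 8.28 on ADM, 8.32 to 8.96 on embryonic and 4.72 to 4.99 on adult arrays. Over all 11 fibrillar chains the means are 3.59 to 3.70 on tumor, 5.49 to 6.12 on ADM, 5.98 to 6.29 on embryonic and 4.21 to 4.42 on adult arrays.

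Of the type IV chains, Col4a1 and Col4a2 were above background in every group and were called higher in ADM and embryonic cells than in adult cells. Col4a1, whose product forms the general basement membrane trimer with that of Col4a2, gave 6.16, 5.25 and 5.84 on the tumor, 7.99, 7.37 and 8.03 on the ADM, 7.67, 7.74 and 7.57 on the embryonic and 5.42, 5.69 and 5.54 on the adult arrays. ADM and embryonic arrays overlapped, as did tumor and adult arrays, and the 2 pairs lay apart. It rose by 2.25 ± 0.23 in ADM (adjusted p = 5.95e-06) and by 2.11 ± 0.23 in embryonic cells (adjusted p = 1.84e-05) against adult cells. It fell by 2.05 ± 0.23 in tumor cells against ADM (adjusted p = 3.55e-05) and by 1.91 ± 0.23 against embryonic cells (adjusted p = 2.96e-05). Tumor cells were at 0.20 ± 0.23 against adult cells, which was not called.

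Col4a2 gave 5.08, 4.48 and 4.55 on the tumor, 6.37, 5.65 and 6.43 on the ADM, 5.58, 5.86 and 5.58 on the embryonic and 4.18, 4.48 and 4.51 on the adult arrays. Its groups stood in the order of Col4a1, ADM over embryonic over tumor over adult, with the lowest ADM array inside the embryonic range. It rose by 1.76 ± 0.22 in ADM (adjusted p = 4.27e-05) and by 1.28 ± 0.22 in embryonic cells (adjusted p = 0.00084) against adult cells. It fell by 1.45 ± 0.22 in tumor cells against ADM (adjusted p = 0.000589), and tumor cells were at -0.97 ± 0.22 against embryonic cells (adjusted p = 0.00541), just under the fold threshold. The call of embryonic against adult cells was lost after quantile normalization (0.96) and cyclic loess (0.96) and centring on housekeeping genes (0.85), and that of ADM against adult cells after the last of these (0.95).

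Col4a1 and Col4a2 lie head to head on chromosome 8, and their promoter windows are printed because they share 78 bases, read on opposite strands and marked in capitals. The Col4a1 window is chr8:11312777-11313076, minus strand, and the Col4a2 window is chr8:11312555-11312854, plus strand, both from RefSeq on GRCm38.p6.
Col4a1: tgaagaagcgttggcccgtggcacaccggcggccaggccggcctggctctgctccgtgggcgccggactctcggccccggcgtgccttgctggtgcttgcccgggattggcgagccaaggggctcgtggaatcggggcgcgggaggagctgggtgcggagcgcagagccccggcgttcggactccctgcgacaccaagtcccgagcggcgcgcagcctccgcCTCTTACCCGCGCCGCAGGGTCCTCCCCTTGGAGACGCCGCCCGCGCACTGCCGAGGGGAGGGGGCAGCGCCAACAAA
Col4a2: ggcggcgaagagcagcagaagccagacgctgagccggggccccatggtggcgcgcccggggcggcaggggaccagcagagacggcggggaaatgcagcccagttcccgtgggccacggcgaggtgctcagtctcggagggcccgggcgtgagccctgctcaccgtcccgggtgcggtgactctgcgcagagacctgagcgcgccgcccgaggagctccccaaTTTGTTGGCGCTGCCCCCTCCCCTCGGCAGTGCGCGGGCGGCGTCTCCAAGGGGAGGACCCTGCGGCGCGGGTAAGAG
The Col4a1 window held 1 CCAAT and 1 GGGCGG match, and the Col4a2 window held 1 CCAAT and 3 GGGCGG matches. A common window of this kind does not show which signals act on either gene.

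Col4a5, a chain of a more restricted basement membrane network, gave 3.32, 3.66 and 3.49 on the tumor, 4.61, 4.18 and 4.60 on the ADM, 4.22, 4.19 and 4.13 on the embryonic and 3.53, 3.60 and 3.89 on the adult arrays. All ADM and embryonic arrays lay above all adult and tumor arrays. The differences missed the fold threshold, at 0.79 ± 0.16 for ADM (adjusted p = 0.00209) and 0.51 ± 0.16 for embryonic cells (adjusted p = 0.0341) against adult cells, and at least 1.79-fold lower in tumor cells, at background, than in ADM (adjusted p = 0.00111). Col4a6, which lies beside Col4a5 on the X chromosome, gave 3.31, 3.37 and 3.29 on the tumor, 3.59, 3.24 and 3.46 on the ADM, 3.79, 3.48 and 3.52 on the embryonic and 3.51, 3.22 and 3.47 on the adult arrays. Its group means were all at background, as were those of Col4a3 and Col4a4.

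**Figure D4:**
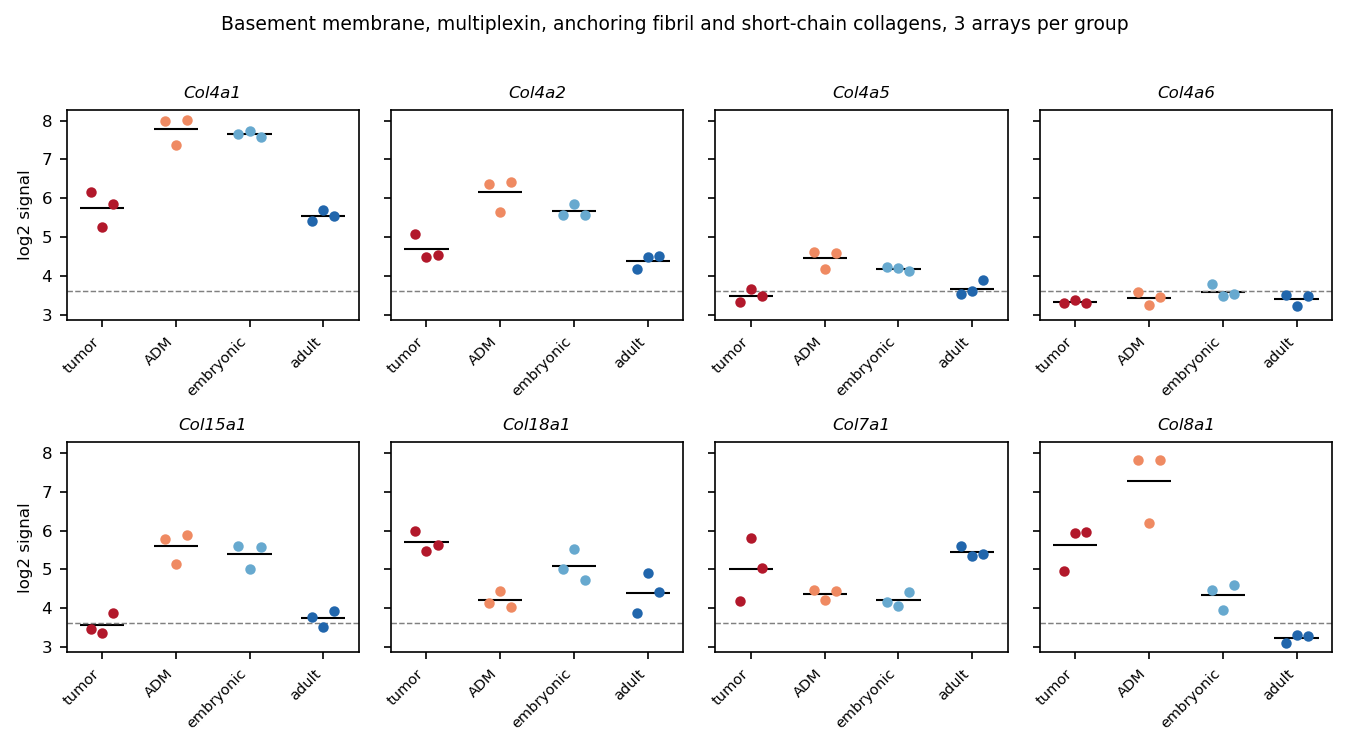
Log2 signal (vertical) of chains of the basement membrane zone, with Col7a1 and Col8a1, by group (horizontal), 1 point per array, with the group mean as a line and the background level of 3.62 dashed. Col4a1, Col4a2 and Col15a1 are high in ADM and embryonic cells, Col18a1 is highest in tumor cells, and Col8a1 is highest in ADM and at background in adult cells.

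Collagens XV and XVIII are basement membrane proteins with interrupted triple helices, and their genes stood in different orders. Col15a1 gave 3.47, 3.35 and 3.88 on the tumor, 5.79, 5.15 and 5.88 on the ADM, 5.59, 5.02 and 5.58 on the embryonic and 3.78, 3.52 and 3.92 on the adult arrays. ADM and embryonic arrays overlapped and lay above all tumor and adult arrays. It rose by 1.87 ± 0.23 in ADM (adjusted p = 3.25e-05) and by 1.66 ± 0.23 in embryonic cells (adjusted p = 0.000142) against adult cells. In tumor cells, at background, it was at least 3.96-fold lower than in ADM and at least 3.42-fold lower than in embryonic cells. Col18a1, the source of endostatin, gave 6.0, 5.46 and 5.63 on the tumor, 4.13, 4.45 and 4.02 on the ADM, 5.01, 5.53 and 4.72 on the embryonic and 3.88, 4.91 and 4.41 on the adult arrays. Tumor arrays lay above all ADM and adult arrays and overlapped the embryonic ones. Col18a1 rose by 1.50 ± 0.27 in tumor cells against ADM (adjusted p = 0.00165), the single chain to do so, and by 1.30 ± 0.27 against adult cells (adjusted p = 0.00161). The second of these came to 0.45 (adjusted p = 0.149) after centring on housekeeping genes, and to 0.997 and 0.97 after quantile normalization and cyclic loess, where it was not called. Against embryonic cells it was at 0.61 ± 0.27 (adjusted p = 0.119).

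Type VI collagen forms beaded filaments around cells from the products of Col6a1, Col6a2 and Col6a3, and all 3 were highest in embryonic cells. Col6a1 gave 4.13, 3.87 and 3.97 on the tumor, 8.09, 5.91 and 7.74 on the ADM, 9.84, 9.17 and 9.52 on the embryonic and 5.76, 5.86 and 5.12 on the adult arrays. Every group lay apart from the others on this probe set, with ADM replicate 2 only just above the highest adult array. It rose by 3.93 ± 0.43 in embryonic cells (adjusted p = 1.91e-05) and by 1.67 ± 0.43 in ADM (adjusted p = 0.00836) against adult cells, and fell by 1.59 ± 0.43 in tumor cells (adjusted p = 0.00992). Without ADM replicate 2 the change in ADM was 2.34, while it lost its call in 3 settings. These were quantile normalization (1.14 with an adjusted p of 0.0799), cyclic loess (1.18, adjusted p = 0.0595) and centring on housekeeping genes (0.86, adjusted p = 0.0912). A second Col6a1 probe set gave 1.65 for ADM (adjusted p = 0.0138) and 3.66 for embryonic cells, and -0.69 for tumor cells (adjusted p = 0.265), all against adult cells. The lower Col6a1 of tumor against adult cells was therefore called on the brighter set alone.

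Col6a2, the neighbour of Col6a1 on chromosome 10, gave 4.58, 4.28 and 4.32 on the tumor, 5.93, 5.26 and 5.66 on the ADM, 7.69, 7.40 and 7.52 on the embryonic and 4.84, 5.14 and 4.75 on the adult arrays. It rose by 2.63 ± 0.19 in embryonic against adult cells (adjusted p = 5.14e-07), whereas ADM was at 0.71 ± 0.19 (adjusted p = 0.00969), under the fold threshold. ADM fell by 1.92 ± 0.19 against embryonic cells (adjusted p = 7.74e-06). Col6a3 gave 3.63, 3.74 and 4.02 on the tumor, 7.62, 6.09 and 6.79 on the ADM, 8.0, 7.35 and 7.77 on the embryonic and 4.78, 4.81 and 4.65 on the adult arrays. ADM overlapped the embryonic range for this chain, unlike for Col6a1 and Col6a2. It rose by 2.09 ± 0.30 in ADM (adjusted p = 0.000118) and by 2.96 ± 0.30 in embryonic cells (adjusted p = 1.03e-05) against adult cells, and ADM was at -0.87 ± 0.30 against embryonic cells (adjusted p = 0.0642). In tumor against embryonic cells the 3 chains fell by 5.52, 3.14 and 3.91.

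Col6a6, an alternative chain of type VI collagen, gave 3.33, 3.68 and 3.98 on the tumor, 3.71, 3.83 and 3.06 on the ADM, 6.52, 5.73 and 6.19 on the embryonic and 3.51, 3.67 and 4.57 on the adult arrays. Embryonic arrays lay above all others. It rose by 2.23 ± 0.30 in embryonic against adult cells (adjusted p = 0.000117) and was at least 5.76-fold lower in ADM than in embryonic cells (adjusted p = 3.84e-05). Col6a4 and Col6a5, beside it on chromosome 9, were at background in all groups.

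Fibril-associated collagens sit on the surface of collagen fibrils. Col12a1 gave 3.84, 3.23 and 3.37 on the tumor, 7.44, 6.27 and 8.13 on the ADM, 7.59, 6.49 and 7.30 on the embryonic and 3.28, 3.51 and 3.51 on the adult arrays. Tumor and adult means were at background. It was at least 12.6-fold higher in ADM (adjusted p = 5.35e-06) and at least 11.4-fold higher in embryonic cells (adjusted p = 1.37e-05) than in adult cells. Col14a1, the related chain of type XIV collagen, gave 3.28, 3.13 and 3.20 on the tumor, 3.58, 3.29 and 3.05 on the ADM, 8.30, 7.09 and 7.59 on the embryonic and 3.70, 3.18 and 3.40 on the adult arrays. It was above background in embryonic cells alone. It was at least 16.4-fold higher there than in adult cells (adjusted p = 1.43e-07), and at least 16.4-fold lower in ADM (adjusted p = 7.8e-08) and in tumor cells (adjusted p = 2.58e-08) than in embryonic cells. Col12a1 and Col14a1 thus parted in ADM, where the first was high and the second at background. The other members of this class, Col9a1, Col9a2, Col9a3, Col16a1, Col19a1, Col20a1 and Col22a1, were called in no comparison.

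Col8a1, a short-chain collagen of vessel walls and of the membrane under the corneal endothelium, was higher in both ADM and tumor cells than in adult cells. It gave 4.96, 5.93 and 5.96 on the tumor, 7.82, 6.20 and 7.81 on the ADM, 4.46, 3.96 and 4.60 on the embryonic and 3.11, 3.31 and 3.27 on the adult arrays. The 4 groups did not overlap, and adult cells were at background. It was at least 12.6-fold higher in ADM (adjusted p = 3.36e-06) and at least 3.99-fold higher in tumor cells (adjusted p = 0.000233) than in adult cells. ADM rose by 2.94 ± 0.39 against embryonic cells (adjusted p = 0.000112), the single chain called higher there. Tumor cells rose by 1.28 ± 0.39 against embryonic cells (adjusted p = 0.0254) and fell by 1.66 ± 0.39 against ADM (adjusted p = 0.0096). The first call was lost without tumor replicate 2 (adjusted p = 0.0948) or 3 (adjusted p = 0.101) and without embryonic replicate 1 (adjusted p = 0.0501) or 2 (adjusted p = 0.0997), and after centring on housekeeping genes (0.86), and the second without ADM replicate 1 (adjusted p = 0.0528) or 3 (adjusted p = 0.0519). Embryonic cells were at least 1.65-fold higher than adult cells (adjusted p = 0.0456). That call held without embryonic replicate 2 (adjusted p = 0.0475) and was lost without each other embryonic or adult array (adjusted p = 0.0808 to 0.125), after cyclic loess (adjusted p = 0.166), with array weights (adjusted p = 0.0973) and after centring on housekeeping genes (adjusted p = 0.132).

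The Col8a1 promoter is printed because of this order of groups, again a choice made after the values were seen. Its window is chr16:57754688-57754987, minus strand, from RefSeq on GRCm38.p6, and capitals mark 4 GGGCGG matches and 1 CAGACA match, on either strand.
Col8a1: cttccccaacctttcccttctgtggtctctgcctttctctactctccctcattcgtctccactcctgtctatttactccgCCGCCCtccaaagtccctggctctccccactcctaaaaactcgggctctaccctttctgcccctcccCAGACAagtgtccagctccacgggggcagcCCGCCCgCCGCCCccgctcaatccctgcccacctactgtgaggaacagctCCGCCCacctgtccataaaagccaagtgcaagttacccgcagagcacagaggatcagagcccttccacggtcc
The other 3 motifs and the CCAAT box were not found in these 300 bases.

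Col7a1, the anchoring fibril chain that ties epithelial basement membranes to the tissue beneath, ran the other way. It gave 4.18, 5.81 and 5.03 on the tumor, 4.46, 4.21 and 4.44 on the ADM, 4.17, 4.06 and 4.42 on the embryonic and 5.61, 5.35 and 5.40 on the adult arrays. Adult arrays lay above all ADM and embryonic arrays, and tumor arrays spread across all 3 other groups. It fell by 1.08 ± 0.30 in ADM (adjusted p = 0.0126) and by 1.24 ± 0.30 in embryonic cells (adjusted p = 0.0076) against adult cells. Col17a1, a membrane-spanning chain of hemidesmosomes, gave 3.39, 3.14 and 3.43 on the tumor, 3.55, 3.76 and 3.43 on the ADM, 3.33, 3.32 and 3.27 on the embryonic and 3.23, 3.25 and 3.35 on the adult arrays, with all group means at background. The other membrane-spanning chains, Col13a1, Col23a1 and Col25a1, and the chains Col10a1 and Col26a1 were above background in at least 1 group and called in no comparison.

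In RefSeq, 8 pairs of members are direct neighbours. Col4a1 with Col4a2 and Col6a1 with Col6a2 each stood in the same order of group means within the pair. Many steps between successive groups were not called, and for Col4a2 none was. Col3a1 and Col5a2 differed in which of embryonic cells and ADM had the higher mean, but the Col5a2 difference was not called (0.79, adjusted p = 0.0947). The 5 other pairs held at least 1 chain at background in every group.

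Genes that make collagen were mostly higher in ADM and embryonic cells than in adult cells where they were called. Of 28 measured genes for hydroxylation, folding, export, trimming and crosslinking, 17 rose and 3 fell in ADM against adult cells, beside 12.5% and 4.22% of all genes, with a median log2 change of 1.50. In embryonic against adult cells 12 rose and 0 fell, beside 10% and 2.61% of all genes, with a median of 0.89. In tumor against adult cells 8 rose and 3 fell, beside 14% and 5.96% of all genes, with a median of 0.09. Tumor cells had 1 gene higher and 13 lower than ADM, beside 3.28% and 5.07% of all genes (median -0.70). They had 2 higher and 9 lower than embryonic cells, beside 6.53% and 7.8% of all genes (median -0.72). ADM had 9 higher and 1 lower than embryonic cells, beside 4.55% and 4.91% of all genes, with a median of 0.31. Under quantile normalization, cyclic loess and centring on housekeeping genes, which were added for these lists after the data had been seen, no called maker or receptor changed direction. Centring on housekeeping genes gave 13 makers higher and 5 lower in ADM, 10 and 1 in embryonic cells and 5 and 10 in tumor cells against adult cells, with medians of 0.69, 0.46 and -0.76. For ADM against embryonic cells it gave 5 higher and 5 lower with a median of -0.07, and for tumor cells it gave 1 and 13 against ADM and 2 and 14 against embryonic cells.

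Lox, a lysyl oxidase that crosslinks collagen outside the cell, gave 3.80, 4.05 and 4.14 on the tumor, 10.51, 9.78 and 10.66 on the ADM, 8.57, 8.19 and 8.52 on the embryonic and 4.47, 4.18 and 4.48 on the adult arrays. The ADM arrays lay above the embryonic ones, and both lay far above the other groups. It rose by 5.94 ± 0.22 in ADM against adult cells (adjusted p = 8.01e-10) and by 1.89 against embryonic cells, and fell by 6.32 ± 0.22 in tumor cells against ADM (adjusted p = 4.58e-10). Its relatives Loxl1 and Loxl3 rose by 3.28 and 3.17 in ADM against adult cells and fell by 3.18 and 2.94 in tumor cells against ADM. Plod2, a lysyl hydroxylase of collagen telopeptides, gave 5.58, 6.32 and 5.49 on the tumor, 8.51, 8.12 and 8.81 on the ADM, 7.56, 6.92 and 7.48 on the embryonic and 3.10, 3.78 and 3.54 on the adult arrays. The groups did not overlap, and Plod2 was at least 29.0-fold higher in ADM and at least 13-fold higher in embryonic cells than in adult cells.

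Serpinh1, which encodes the collagen chaperone Hsp47, gave 6.97, 7.02 and 6.96 on the tumor, 7.80, 7.34 and 7.81 on the ADM, 8.65, 8.05 and 8.20 on the embryonic and 5.55, 4.76 and 5.28 on the adult arrays. Tumor cells, with their low fibrillar chains, thus lay above adult cells for this gene, where it rose by 1.79, or 0.94 and uncalled after centring on housekeeping genes. It rose by 2.45 ± 0.22 in ADM (adjusted p = 1.91e-06) and by 3.10 in embryonic cells, while tumor cells were at -0.67 against ADM (adjusted p = 0.0584). P4hb, a subunit of prolyl hydroxylase that is also a general disulfide isomerase of secretory cells, gave 10.24, 10.42 and 10.10 on the tumor, 10.62, 10.29 and 10.41 on the ADM, 11.33, 11.51 and 11.24 on the embryonic and 11.75, 11.73 and 11.59 on the adult arrays. It fell by 1.25 ± 0.15 in ADM (adjusted p = 2.39e-05) and by 1.44 in tumor cells against adult cells, and the first came to -0.95, under the fold threshold, after quantile normalization. The export gene Sec23a rose by 2.59 in tumor and by 2.65 in embryonic cells against adult cells. Its mean was highest in ADM, at 7.30, beside 6.91 in tumor, 6.96 in embryonic and 4.31 in adult cells. Crtap and Colgalt1, which take part in prolyl hydroxylation and in adding galactose to collagen, rose by 2.41 and 2.37 in tumor against adult cells.

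Pcolce2, an enhancer of procollagen trimming, gave 7.02, 8.94 and 8.70 on the tumor, 6.55, 5.62 and 6.35 on the ADM, 3.50, 3.64 and 3.94 on the embryonic and 4.74, 3.70 and 4.14 on the adult arrays. Every tumor array lay above every array of the other groups. It rose in tumor cells by 4.03 against adult cells (adjusted p = 5.83e-06), by 4.53 against embryonic cells and by 2.05 against ADM, where it was the single maker called higher. It also rose by 2.48 in ADM against embryonic cells.

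**Figure D5:**
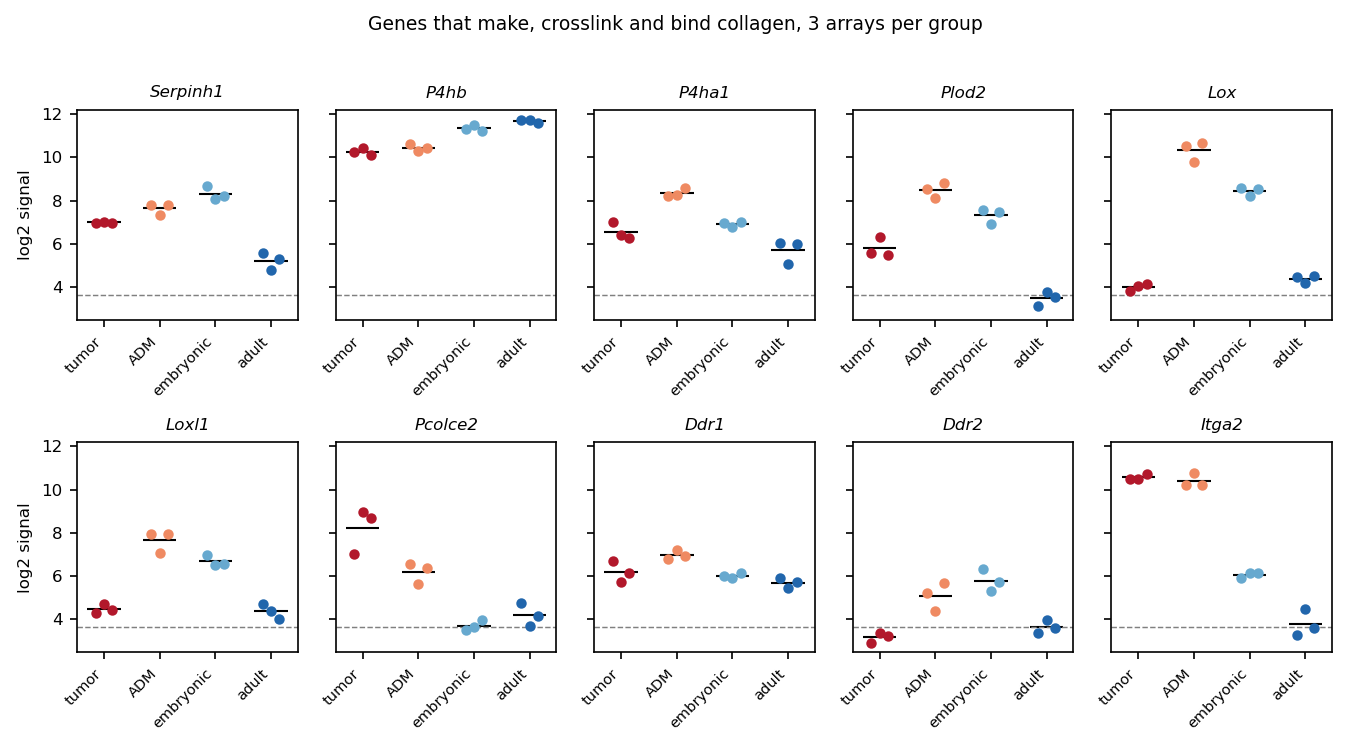
Log2 signal (vertical) of 10 genes that make, crosslink or bind collagen, by group (horizontal), 1 point per array, with the group mean as a line and the background level of 3.62 dashed. Lox, Loxl1 and Plod2 are highest in ADM, Pcolce2 is highest in tumor cells, Itga2 is high in tumor cells and ADM, and P4hb is lower in both than in adult cells.

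Of 9 measured collagen receptors, 5 rose in ADM, 2 in embryonic and 2 in tumor cells against adult cells, and 0 fell in these comparisons. The shares called were 55.6% in ADM, 22.2% in embryonic and 22.2% in tumor cells, beside 16.7%, 12.6% and 20% of all genes for the same comparisons, so the share in tumor cells was near that of all genes. Centring on housekeeping genes gave 2 higher and 0 lower in ADM, 2 and 0 in embryonic cells and 1 and 3 in tumor cells. Itga2, the alpha subunit of an integrin that binds fibrillar and type IV collagen, gave 10.51, 10.49 and 10.70 on the tumor, 10.23, 10.77 and 10.23 on the ADM, 5.89, 6.14 and 6.12 on the embryonic and 3.26, 4.49 and 3.59 on the adult arrays. It rose by 6.63 ± 0.26 in ADM (adjusted p = 1.42e-09) and by 6.79 ± 0.26 in tumor cells (adjusted p = 5.51e-10) against adult cells, and tumor and ADM arrays overlapped. Ddr2, a receptor kinase for fibrillar collagen, gave 2.91, 3.35 and 3.21 on the tumor, 5.20, 4.36 and 5.69 on the ADM, 6.32, 5.30 and 5.73 on the embryonic and 3.37, 3.94 and 3.61 on the adult arrays. It rose by 1.44 in ADM (adjusted p = 0.00304) and by 2.14 in embryonic cells against adult cells, and was at least 2.76-fold lower in tumor cells than in ADM. The change in ADM was 0.63 (adjusted p = 0.0886) after centring on housekeeping genes. Ddr1, its epithelial relative, gave 6.68, 5.73 and 6.12 on the tumor, 6.79, 7.21 and 6.94 on the ADM, 5.99, 5.91 and 6.13 on the embryonic and 5.91, 5.44 and 5.71 on the adult arrays, and rose by 1.29 in ADM against adult cells (adjusted p = 0.000471). That Ddr1 change was under the fold threshold after quantile normalization (0.72), cyclic loess (0.80) and centring on housekeeping genes (0.48). Mrc2, a receptor that takes up collagen for degradation, rose by 2.54 in ADM against adult cells and by 1.91 against embryonic cells, and fell by 2.80 in tumor cells against ADM.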

How the data were processed

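The values were log2 signal per probe set as the authors deposited them, with 2 decimals and a range of 1.56 to 13.67, from which the log base was inferred. Scanner files were not used here, and the software and normalization behind the values are not given in the sources used here. RNA was extracted with a column kit and labelled with biotin, per the labels' protocols. The platform annotation named 1 gene for 23521 of the 41345 probe sets, several for 1814 and none for 16010. The first kind gave 22180 genes, and 23328 of its probe sets matched a RefSeq gene by identifier. The brightest probe set was used for each of the 1082 genes with over 1. Cross-hybridisation was not tested.

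A linear model of the 4 group means was fitted to the 12 arrays in limma 3.58.1 (R 4.3.3), without a term for the replicate number and with 8 residual and 5.02 prior degrees of freedom. P-values were two-sided, adjusted by Benjamini-Hochberg over all genes (over all probe sets for the second probe sets of Col1a2, Col5a1 and Col6a1), and 6 contrasts were read. The procedure was tested on simulated data. Precision is limited by the 3 arrays per group. Members, gene lists and tests were chosen with earlier results of these data known. Array values are given for 16 chains of pancreatic stroma and basement membrane (Col1a1, Col1a2, Col3a1, Col4a1, Col4a2, Col4a5, Col4a6, Col5a1, Col5a2, Col6a1, Col6a2, Col6a3, Col12a1, Col15a1, Col17a1 and Col18a1) and for up to 3 more called chains per class by absolute change. Makers and receptors named are Serpinh1, P4hb, Lox, Ddr1, Ddr2 and called genes among the 4 with the largest change per contrast. Lists of markers of other cells were measured in the same way. Of 33 listed makers 28 were measured, and of 10 receptors 9. Alternatives were quantile normalization, cyclic loess, centring on housekeeping genes, leaving out dim genes, array weights, a replicate block, the mean of probe sets, fits of 2 groups, and leaving out each array. No probe set of another series was present, and promoter windows came from RefSeq on GRCm38.p6.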

Additional observations from a re-analysis of the deposited data

Results flagged for a closer look

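Col1a2, Col3a1 and Col6a1 were called in opposite directions against adult acinar cells, higher in ADM and lower in tumor cells. The difference itself, tumor against ADM, was fitted at -7.38 for Col1a2, -4.03 for Col3a1 and -3.26 for Col6a1 on the log2 scale. Col1a2 was at background in tumor cells on the probe set used, so its fitted value is not a measured size. Only a bound of at least 98.3-fold lower is given for that set. Adjusted p was 8.67e-10, 2.32e-06 and 0.000147 for Col1a2, Col3a1 and Col6a1. The second, dimmer Col1a2 probe set gave a smaller change of -3.63 for tumor against ADM (adjusted p = 1.14e-05). The tumor side of the contrast rests on the brighter probe set for Col1a2 and Col6a1.

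Some probe sets that were not used for a gene also carried signal, and they were flagged only where called higher. The second Col1a2 probe set rose by 3.51 in ADM and by 4.55 in embryonic cells against adult cells. The second Col6a1 probe set rose by 1.65 and 3.66 in the same comparisons. The second Col5a1 probe set was not called in them, at -0.26 (adjusted p = 0.343) and -0.04 (adjusted p = 0.889), unlike its brighter set.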

How the results depend on the processing

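The 6 counts of called chains stayed within 1.5 times under each alternative, with 4 exceptions. Centring on housekeeping genes gave 24 called chains (9 higher, 15 lower) in place of 15 for ADM against adult cells, 31 (1 higher, 30 lower) in place of 5 for tumor against adult cells, and 11 (1 higher, 10 lower) in place of 7 for ADM against embryonic cells. Over all genes the same centring gave 1022 higher and 9409 lower, 1211 and 9669, and 579 and 2021, in the same order. Cyclic loess gave 8 (1 higher, 7 lower) for tumor against adult cells, beside 1960 and 1960 of all genes. The housekeeping centring moved the median log2 change of all genes to -0.93 in tumor cells, -0.92 in ADM and -0.52 in embryonic cells, each against adult cells, to -0.38 for ADM and -0.34 for tumor cells against embryonic cells, and to 0.03 for tumor cells against ADM. Of 73 calls of a chain in a comparison, 60 held under every alternative, 13 were lost under at least 1, and 0 changed direction. Col8a1 in embryonic against adult cells was lost under 8 of 14. Leaving out each array in turn gave 14 to 15 chains for ADM, 15 to 16 for embryonic and 5 to 7 for tumor cells, each against adult cells. It gave 14 to 17 for tumor against ADM, 6 to 10 for ADM against embryonic and 13 to 17 for tumor against embryonic cells. The labels number replicates 1 to 3 in every group, but over genes above background arrays with the same number mostly did not deviate together. The 18 correlations lay between -0.06 and 0.17, and an array correlated best with its own number in 9 of 36 cases. The 1 correlation over 0.1 was that of replicate 2 of ADM with replicate 2 of embryonic cells. These 2 arrays were also the lowest of their groups for most of the chains that rose, and a link between them was not tested. With the replicate number as a block, the 6 counts were 15, 16, 5, 15, 7 and 15, as without it, and all 73 calls held. Chains near the background level of 3.62 have only a bound on their change, and the centring on housekeeping genes rests on 11 genes whose levels differed between groups.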
